A study of Mus musculus with 2 samples.

Results

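The smooth muscle cells of the mouse esophagus are described here from embryonic to adult life. They are the cells that the authors' annotation labels smooth muscle and whose oligonucleotide tag assigns them to the esophagus, and there were 187 of them among 2311 esophageal cells, or 8.09% (exact 95% interval 7.01 to 9.28). The whole dataset held 7808 cells, of which 1027 were labelled smooth muscle in any region. By stage, the cells made up 93 of 648 esophageal cells at embryonic day 15 (E15; 14.4%, 11.7 to 17.3), 42 of 988 at embryonic day 19 (E19; 4.25%, 3.08 to 5.70), 22 of 340 in the pup of 2 days (6.47%, 4.099 to 9.63) and 30 of 335 in the adult of 8 weeks (8.96%, 6.12 to 12.5).

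All mice were C57BL/6 wild type, untreated, and the stages were E15, E19, pup and adult. Esophagus, gastroesophageal squamocolumnar junction (GE-SCJ) and stomach were cut apart, dissociated with collagenase II, tagged by region and stage, pooled and sequenced as 1 droplet library (10x Genomics 3′ chemistry with CellPlex tags). Smooth muscle cells of the esophagus were compared with esophageal cells labelled stromal (347, 739, 151 and 31 by stage) and with stomach cells labelled smooth muscle (111, 160 and 113 at E15, E19 and pup). Adult stomach smooth muscle was not analysed here, and smooth muscle of the GE-SCJ (131, 190, 119 and 16 cells by stage) is given beside the stomach where it bears on the region. Several mice were combined under each tag and the cells carry no mouse label, which leaves 1 sample without replicates for every region and stage. No test between groups was therefore made and no p-value is given.

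The esophageal smooth muscle cells carried 1133570, 462460, 114633 and 171392 unique molecular identifiers (UMIs, each marking 1 captured RNA molecule) over E15, E19, pup and adult, with a median per cell of 11533, 10348, 5880 and 5478. A level is the sum of a gene's UMIs in all cells of a sample per 1000000 UMIs of that sample (CPM), and the range in parentheses is its exact 95% Poisson interval. Levels listed in a row follow the stages, E15 first, then E19, pup and adult. Counts from the 3′ end count molecules, so no scaling by gene length is needed. Ratios are log2 ratios of CPM after adding 1 UMI to the shallower group and the depth-matched amount to the other. All intervals cover counting error only, not differences between mice. A gene without a UMI could have a level of up to 2.65, 6.49, 26.2 and 17.5 CPM by stage, which is what 3 counts would give.

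Smooth muscle contracts when calcium entering through voltage-gated channels or released from stores activates myosin light chain kinase, which phosphorylates the regulatory light chain of smooth muscle myosin so that it pulls on α- and γ-actin filaments. Acetylcholine acting on muscarinic receptors starts this in the gut wall, and nitric oxide acting through cyclic GMP reverses it. In the mouse esophagus the outer muscle coat is laid down as smooth muscle in the fetus and is striated in the adult, whereas the muscularis mucosae and the walls of blood vessels keep smooth muscle throughout life.

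Membership in a region and stage rested on 1 designed oligonucleotide per group, so the 4 tags that define these cells are shown first, 5′ to 3′.
E15 esophagus (CMO301): atgaggaattcctgc
E19 esophagus (CMO304): aacgttaatcactca
Pup esophagus (CMO307): aagctcgttggaaga
Adult esophagus (CMO310): gcaggaggtatcaat
Every cell had the same tag in both deposited lists, and none of the 7808 barcodes occurred more than once.

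The contractile genes described below are classical targets of serum response factor and its partner myocardin, which bind the CArG box. Of a list of 29 contractile and cytoskeletal genes, 24 genes had 29 promoters in the RefSeq table of GRCm38.p6 (250 bases before to 50 after the start), and 6 of these promoters (20.7%) held an exact CArG box on either strand, against 535 of all 32851 promoters of the same length (1.63%). With up to 1 mismatch allowed among the 6 central A/T bases, and CC and GG kept at the ends, the counts were 9 of 29 (31.0%) and 3280 of 32851 (9.98%). Promoters of 1 gene can overlap, as the pair of *Ldb3* does, which shares 1 box. Counted by gene, 5 of 24 (20.8%) held an exact box, against 488 of all 27025 genes (1.81%). *Acta2*, the smooth muscle α-actin and one of the most abundant messages in these cells, and *Myl9*, the regulatory light chain of smooth muscle myosin, show boxes in that window, and both sequences are given below with the boxes in capitals.
*Acta2*, chr19:34255324-34255623, minus strand: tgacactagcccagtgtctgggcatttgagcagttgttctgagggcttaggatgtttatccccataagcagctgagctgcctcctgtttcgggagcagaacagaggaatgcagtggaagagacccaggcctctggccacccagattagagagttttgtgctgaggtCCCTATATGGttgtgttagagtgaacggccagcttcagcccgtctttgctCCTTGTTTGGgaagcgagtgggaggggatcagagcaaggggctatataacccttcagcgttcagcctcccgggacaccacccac
*Myl9*, chr2:156775214-156775513, plus strand: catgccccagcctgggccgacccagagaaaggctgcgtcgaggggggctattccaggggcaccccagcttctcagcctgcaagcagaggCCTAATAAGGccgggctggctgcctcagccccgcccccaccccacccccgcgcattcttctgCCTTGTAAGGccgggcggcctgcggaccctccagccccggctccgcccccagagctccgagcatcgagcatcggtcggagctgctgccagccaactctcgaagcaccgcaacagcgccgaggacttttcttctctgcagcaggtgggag
In *Acta2* both boxes, first base at -84 and -34 from the start, carried 1 such mismatch. In *Myl9* the box at -161 was exact and the box at -99 carried 1 mismatch. A match describes these letters only and does not show that a factor binds there. *Myh11*, *Tagln* and *Actg2* had no entry.

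The 4 markers of smooth muscle were present in the labelled cells at every stage. *Acta2* (GRCm38 chr19:34241090-34255590, minus strand) stood at 12050 (11849–12254), 12687 (12364–13015), 13809 (13137–14507) and 13606 (13060–14170) CPM, so the pup and adult intervals overlapped and that of E15 lay below them. Esophageal stroma held 1006, 1215, 253 and 118 CPM at the same stages. As a measure of free RNA in the pool, the 354 immune cells, a type that makes no smooth muscle actin, carried 190.2 CPM. In single cells at E15 the lowest, median and highest level was 1993, 11712 and 24515 CPM, and in the adult 169.6, 12425 and 27137 CPM.

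*Myh11*, the smooth muscle myosin heavy chain (chr16:14194535-14291372, minus strand), was at 3729.8 (3618–3844), 4707 (4512–4909), 6918 (6445–7416) and 4534 (4220.3–4864) CPM, highest in the pup and with overlapping intervals at E19 and in the adult. Stroma held 56.7, 211, 28.7 and 18.6 CPM and immune cells 45.2 CPM. *Tagln*, an actin-bundling protein also called SM22α (chr9:45929619-45936058, minus strand), reached 9356 (9179–9536), 10304 (10013–10600), 12518 (11879–13183) and 15170 (14592–15764) CPM, an order in which no neighbouring intervals overlapped. *Des*, the muscle intermediate filament desmin (chr1:75360329-75368579, plus strand), was at 819.5 (768–874), 1626 (1512–1747), 1614 (1389.7–1864) and 2007 (1801–2231) CPM, lowest at E15, and the pup interval overlapped those of E19 and of the adult. At least 3 of these 4 genes were found in 93 of 93, 42 of 42, 21 of 22 and 30 of 30 smooth muscle cells by stage, and in 100 of 347, 195 of 739, 7 of 151 and 0 of 31 stromal cells. The stromal levels of all 4 genes at E15 and E19 were above those of immune cells, which carried 116 CPM of *Tagln* and 22.1 CPM of *Des*.

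**Figure D1:**
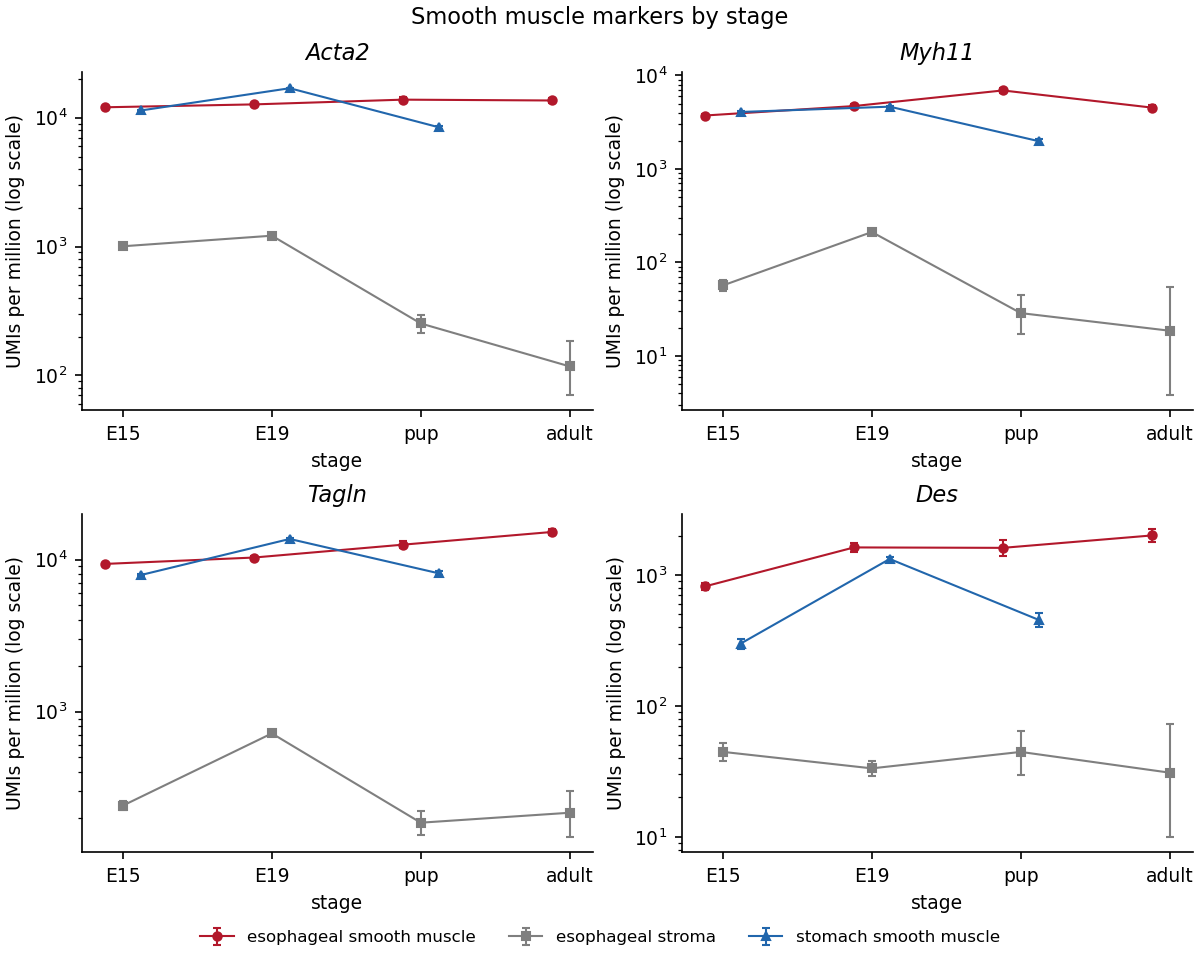
CPM (log axis) of *Acta2*, *Myh11*, *Tagln* and *Des* by stage in esophageal smooth muscle, esophageal stroma and stomach smooth muscle; points are summed levels and bars exact 95% Poisson intervals. Esophageal smooth muscle lies above esophageal stroma at all 4 stages for each gene, and the stomach lies below it in the pup for each gene, at E15 for *Acta2*, *Tagln* and *Des*, and at E19 for *Des* and, with overlapping intervals, *Myh11*; within the authors' cluster 4 the pup difference holds for *Myh11* alone.

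The label joins 2 clusters of the authors, numbered 4 and 11, and their balance differed between stages. Cluster 4 held 91 of 93 cells at E15, 41 of 42 at E19 and 19 of 22 in the pup, but 7 of 30 in the adult, where cluster 11 held 23. The genes with the highest ratio in cluster 4 over all other cells were *Smpx*, *Pcp4*, *Sh3bgr*, *Car3* and *Ckm*, with the contractile genes *Actg2* and *Cnn1* and the skeletal muscle genes *Ckm* and *Casq1* among its top 10. Cluster 11 was led by *Enpp2*, *Mustn1* and *Mchr1*, with the pericyte gene *Rgs5* and no contractile gene among its top 10. Contractile genes were nevertheless abundant in it: adult cluster 11 cells of the esophagus carried 12052 CPM of *Acta2*, 11021 of *Tagln* and 3766 of *Myh11*, against 17158, 24654 and 6288 CPM in the 7 adult cells of cluster 4. For most lists, counts that set pup or adult cells against others are therefore also given within cluster 4, down to 19 pup and 7 adult cells of the esophagus and 12 pup cells of the stomach. Against stroma, the Hedgehog, interstitial cell of Cajal, Hox and cell cycle counts are by label only.

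Against esophageal stroma, smooth muscle cells were set apart by the contractile apparatus at all stages. Because the label was made from the same genes, these ratios describe the label and do not test it. Of 9941 genes with at least 100 UMIs over both groups, 182 (1.83%) were more than 2-fold higher in smooth muscle at each of the 4 stages and 282 (2.84%) more than 2-fold lower. The contractile list had 28 such genes, of which 24 were higher at every stage and 0 lower, with medians of 2.87, 2.89, 4.01 and 4.29 (log2 ratio) at E15, E19, pup and adult, beside medians of -0.22, -0.11, -0.24 and -0.06 over all genes. *Pdlim3*, *Ppp1r14a*, *Cnn2* and *Itga8* were the 4 not past 2-fold throughout. Within cluster 4, 161 of all genes were higher than in stroma at every stage and 293 lower, and the contractile list had 23 of 28 higher (the loss being *Vcl*, vinculin), with medians of 2.88, 2.89, 4.14 and 4.44. The whole list of 29 summed to 7.50%, 9.03%, 9.34% and 8.42% of all UMIs in the muscle cells.

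The actin *Actg2*, the γ-actin of visceral muscle, was at 5677, 7787, 6141 and 3256 CPM by stage in smooth muscle and 90.03, 202, 58.9 and 37.1 CPM in stroma, log2 ratios of 5.96, 5.25, 6.51 and 6.23. Within cluster 4 its level was 6967 CPM in the pup and 6939.9 CPM in the adult, so the lower adult level by label was not seen there. *Cnn1*, the actin-binding calponin of differentiated smooth muscle, was at 1338, 1832, 1797 and 2077 CPM against 16.01, 53.7, 15.9 and 0 CPM. No *Cnn1* UMI was seen in the 31 adult stromal cells, so smooth muscle was at least 111.9-fold higher there, taking 3 counts over the group as the floor. The regulatory light chain *Myl9* stood at 5009, 6481, 4807 and 4283 CPM against 286, 368, 66.9 and 55.7 CPM, and *Tpm2*, β-tropomyosin, which lies along the actin filament, at 7616, 9354, 9796 and 6966 CPM against 403, 568, 145 and 167 CPM. *Mylk*, the kinase that switches myosin on, was at 4631, 7067, 5034 and 3903 CPM against 297, 415, 137 and 37.1 CPM. In each of these genes all 4 smooth muscle samples were above all 4 stromal samples.

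Genes outside the contractile list stood among the highest ratios as well. *Myom1*, the myomesin that crosslinks myosin filaments, had log2 ratios of 5.04, 5.24, 5.04 and 5.44 over stroma, and *Synpo2*, an actin-binding protein of the contractile list, 4.20, 5.52, 5.40 and 4.44. *Sh3bgr*, whose product is rich in glutamic acid, had 7.12, 6.15, 5.19 and 5.89, and *Pcp4l1*, a small protein with an IQ motif, 5.25, 4.86, 4.17 and 6.70. *Sh3bgr* was at 671, 681, 427 and 362 CPM in smooth muscle and at most 7.45 CPM in stroma. Along with *Actg2*, *Cnn1*, *Myh11*, *Des*, *Myl9* and *Tpm2* these were the 10 genes whose smallest ratio over the 4 stages was largest.

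Genes of excitation and relaxation were higher in part. Of 22 measured members, 6 were more than 2-fold above stroma at every stage, namely *Kcnma1*, *Kcnmb1*, *Cacna1c*, *Pln*, *Prkg1* and *Mrvi1*, and 0 were below it throughout. The medians of the list were 0.95, 1.59, 0.88 and 1.89, and within cluster 4 they were 0.92, 1.56, 0.91 and 0.67 with 5 genes higher throughout, *Pln* having 0 UMIs in the 7 adult cells. *Kcnma1* and *Kcnmb1*, the pore and β1 subunit of the large-conductance calcium-activated potassium channel, were at 29.99, 56.2, 69.8 and 93.4 CPM and 23.8, 62.7, 105 and 210 CPM by stage. *Cacna1c*, the L-type calcium channel, was at 93.5, 97.3, 139.6 and 134 CPM against 18.9, 14.9, 11.1 and 49.5 CPM in stroma. *Pln*, phospholamban, an inhibitor of the calcium pump of the sarcoplasmic reticulum, was at 51.2, 4.32, 157 and 333 CPM, where the E19 value rests on 2 UMIs. *Prkg1* and *Mrvi1*, the cyclic GMP-dependent kinase and its substrate at the calcium store, were highest in the adult, at 263 and 408 CPM.

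Among 25 measured mesenchymal transcription factors, *Myocd* was higher than in stroma at every stage and *Hic1* lower, with list medians of -0.26, -0.27, 0.34 and 0.25. That is 1 gene in each direction, a small count beside 1.83% of all genes higher and 2.84% lower at every stage. Within cluster 4 *Tcf21* and *Klf4* joined *Hic1* on the lower side, under the depth limit of the adult cells of that cluster. *Myocd*, myocardin, the coactivator that drives smooth muscle genes with serum response factor, was at 219.7, 158, 166 and 140 CPM in smooth muscle and 53.8, 54.02, 7.96 and 6.19 CPM in stroma. *Hic1*, a zinc-finger repressor that marks mesenchymal progenitors, was at 59.1, 12.97, 34.9 and 29.2 CPM against 124, 111, 100.3 and 68.1 CPM. *Foxf1*, a forkhead factor of gut mesenchyme, was found in both groups, at 251, 192, 218 and 117 CPM and 229.7, 168, 107 and 74.3 CPM. *Srf* itself, which many cell types make, was low, at 25.6, 15.1, 8.72 and 35.01 CPM by stage.

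Fibroblast and matrix genes lay on the stromal side. In the fibroblast list 8 of 10 genes were more than 2-fold lower in smooth muscle at every stage and 0 higher, with medians of -3.75, -3.74, -3.19 and -3.46, and within cluster 4 the counts were again 8 and 0, with a pup median of -4.59 and an adult median of -3.91. *Col3a1*, a fibrillar collagen, was at 1071, 1070.4, 1108 and 1838 CPM in smooth muscle and 8535, 16265, 11150 and 11494 CPM in stroma. *Dcn*, the collagen-binding proteoglycan decorin, was at 84.7, 188, 331 and 385 CPM against 4644, 6728, 3602 and 11339 CPM, and *Pdgfra*, the fibroblast receptor for platelet-derived growth factor, at 19.4, 19.5, 34.9 and 29.2 CPM against 251, 292, 876 and 470.4 CPM. Immune cells carried 168 CPM of *Dcn*, so the E15 level in muscle was below that background and the E19 level near it.

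Of 33 measured matrix and adhesion genes, 11 were lower throughout (*Lama2*, *Eln*, *Fbn1*, *Fbln1*, *Fbln5*, *Mfap4*, *Vcan*, *Col5a1*, *Col5a2*, *Col8a1* and *Col14a1*) and 3 higher, with medians of -0.97, -1.41, -1.57 and -1.63. *Itga1*, the integrin α1 chain that binds collagen and laminin, was at 337, 333, 567 and 560.1 CPM against 39.4, 54.02, 46.2 and 99.03 CPM in stroma. *Npnt*, nephronectin, an integrin ligand, was at 45.9, 99.5, 157 and 298 CPM against 4.99, 46.6, 12.7 and 6.19 CPM, and *Lama5*, the laminin α5 chain, at 39.7, 115, 61.1 and 70.02 CPM against 8.92, 9.17, 7.96 and 6.19 CPM. Within cluster 4, *Itga1* was the 1 gene still past 2-fold above stroma at every stage, 12 were lower throughout, and *Lama5* had 0 UMIs in the 7 adult cells.

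Signalling lists split. Among 17 measured BMP and TGF-β genes, 3 were higher than in stroma throughout and 0 lower (medians 0.73, 0.90, -0.16 and 1.14). Within cluster 4 the same 3 were higher, 2 were lower (*Bmp2* and *Tgfb3*), and the adult median was -1.20, of the opposite sign. In the adult cells of cluster 4, 3 counts would give 57.5 CPM. The lower calls and the adult medians there, in the WNT list too, therefore cannot be told from low depth. *Grem1*, a secreted BMP antagonist, was at 126, 212, 69.8 and 23.3 CPM against 3.41, 3.296, 11.1 and 0 CPM. *Id2* and *Id4*, inhibitors of DNA binding that BMP signalling induces, were at 880.4, 811, 794 and 321 CPM against 76.9, 140, 174 and 68.1 CPM and at 89.1, 199, 113 and 508 CPM against 12.9, 15.5, 14.3 and 6.19 CPM. Among 17 measured WNT genes, *Nkd1*, a feedback inhibitor of the pathway, was higher throughout (82.04, 166, 157 and 228 CPM against 25.2, 55.3, 6.37 and 37.1 CPM) and *Dkk2*, a secreted modulator, lower, with medians of -0.49, -0.25, -0.16 and -0.08. Within cluster 4 *Nkd1* was again the 1 higher gene, and *Wnt9a* and *Fzd4* were the lower ones in place of *Dkk2*. None of 10 Hedgehog response genes was past 2-fold in the same direction at all 4 stages. The interstitial cell of Cajal list (3 of 5 measured), the Hox list (7 of 21) and the cell cycle list (20 of 20) also had 0 genes past 2-fold in the same direction at every stage.

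The comparison with the stomach asks how smooth muscle of neighbouring organs differs. Past 2-fold in the same direction at all 3 shared stages were 7 of 23 measured mesenchymal transcription factors and 1 of 29 contractile genes. The lists were chosen with earlier results of these data known. The 2 counts therefore describe these lists and do not test which kinds of genes differ. Of 7039 genes with at least 100 UMIs over both groups, 36 (0.511%) were more than 2-fold higher in the esophagus at E15, E19 and pup and 55 (0.781%) more than 2-fold lower. The balance of these counts turned under other settings. With an interval of the ratio that also excluded equality they were 33 higher and 24 lower, with 5 added UMIs 24 and 16, and with 1 UMI added to each sum whatever its depth 43 and 36. Medians over all genes were -0.14, 0.02 and -0.17. Nearly all stomach cells at E15 and E19 were in cluster 4 (109 of 111 and 154 of 160), but in the stomach pup only 12 of 113, so the list counts were also computed with both organs in cluster 4, where 45 of all genes were higher and 89 lower at every stage.

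*Nkx6-1*, a homeodomain factor (chr5:101658139-101664996, minus strand), was at 191 (167–219), 171 (135–213), 139.6 (79.8–227) and 216 (152–298) CPM in esophageal smooth muscle and at 13.9 (8.82–20.9), 21.2 (15.2–28.8) and 0 CPM in stomach smooth muscle. The GE-SCJ was between them with 69.8, 65.8 and 12.3 CPM at E15, E19 and pup. Esophageal and stomach intervals were apart at E15 and E19, no UMI was found in the 113 stomach pup cells, and 76 of 93 esophageal cells at E15 carried a UMI. The esophageal stroma had 115, 99.2, 108 and 68.1 CPM, so the gene was not limited to muscle, and immune cells had 1.59 CPM. Within cluster 4 the pup level was 154 CPM in the esophagus and 0 in the stomach.

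Further transcription factors on the esophageal side were *Prrx1*, a paired-related homeobox factor of mesenchyme (chr1:163245119-163313710, minus strand), and *Osr1*, an odd-skipped zinc-finger factor. *Prrx1* was at 80.3, 64.9, 166 and 198 CPM by stage against 4.23, 4.66 and 5.37 CPM in the stomach, and *Osr1* at 161, 188, 323 and 134 CPM against 23.6, 20.7 and 10.7 CPM. *Osr1* was, like *Nkx6-1*, also carried by the esophageal stroma, at 215, 161, 166 and 55.7 CPM.

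The other genes most above the stomach had varied products. *Hgf*, hepatocyte growth factor, was at 71.5, 186, 78.5 and 0 CPM against 7.26, 7.77 and 7.17 CPM, while esophageal stroma carried 3.41, 2.72, 7.96 and 18.6 CPM. *Fgl2*, a fibrinogen-like protein, was at 207, 590.3, 794 and 70.02 CPM against 33.9, 65.8 and 5.37 CPM, the largest of these differences in the pup (log2 ratio 5.83). *Cpxm2*, a carboxypeptidase-like protein, was at 44.1, 125, 166 and 181 CPM against 0.605, 7.77 and 17.9 CPM, *Adamtsl3*, a matrix protein, at 29.1, 77.8, 113 and 17.5 CPM against 1.21, 3.63 and 19.7 CPM, and *Ndnf*, a neuron-derived secreted factor, at 66.2, 119, 52.3 and 23.3 CPM against 15.1, 24.9 and 1.79 CPM. *Mpped2*, a metallophosphodiesterase, was at 147, 106, 157 and 0 CPM against 27.8, 20.2 and 8.96 CPM. *Hgf* and *Mpped2* had 0 UMIs in the 30 adult esophageal cells, which allows an adult level of up to 17.5 CPM.

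On the stomach side stood factors known from stomach mesenchyme. *Barx1*, a homeobox factor needed for stomach patterning (chr13:48662998-48666507, plus strand), was at 52.9 (40.4–68.1), 8.65 (2.36–22.1), 34.9 (9.51–89.3) and 40.8 (16.4–84.2) CPM in the esophagus and at 621 (583–659.8), 581 (548–616) and 437 (384–496) CPM in the stomach, and immune cells carried 18.3 CPM. The GE-SCJ lay close to the stomach with 457, 433 and 404 CPM. *Isl1*, a LIM homeobox factor (chr13:116298281-116309689, minus strand), was at 3.53, 4.32, 8.72 and 0 CPM in the esophagus, under the 11.96 CPM of immune cells, and at 226, 134 and 172 CPM in the stomach, with 77.3, 55.4 and 156 CPM in the GE-SCJ. *Six2*, a sine oculis homeobox factor, was at 4.41, 0, 0 and 5.83 CPM against 141, 89.6 and 68.1 CPM, and *Pitx1*, a paired-class homeobox factor, at 7.94, 6.49, 34.9 and 58.3 CPM against 57.5, 109 and 259.8 CPM.

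Of the 23 measured mesenchymal transcription factors, 2 were higher in the esophagus at every stage (*Nkx6-1* and *Prrx1*) and 5 lower (*Barx1*, *Isl1*, *Pitx1*, *Six2* and the orphan nuclear receptor *Nr2f1*), with medians of -0.40, -0.32 and -0.33. The cluster 4 counts were again 2 and 5, with *Hand2*, a basic helix-loop-helix factor, in place of *Pitx1*, and a pup median of 0.18. *Zfhx4*, a zinc-finger homeobox factor, *Stox2*, a winged-helix protein, *Hoxa5*, a patterning factor of the anterior foregut, *Hist1h1b*, a linker histone made in S phase, and the WNT receptors *Fzd4* and *Fzd5* completed the 10 lowest genes. *Hoxa5* was at 4.41, 6.49, 8.72 and 5.83 CPM against 55.05, 55.9 and 53.7 CPM, and highest in the GE-SCJ with 158, 134 and 87.8 CPM. Within cluster 4 the 9 higher genes described and the 10 lower ones kept their side at E15 and E19 past 2-fold. In the pup 8 of the 9 higher and 8 of the 10 lower genes were past 2-fold within cluster 4, with only 12 stomach cells behind those values. The exceptions were *Adamtsl3* (log2 ratio 0.46, interval -1.08 to 2.26), *Fzd4* (-0.69, -7.10 to 3.05) and *Pitx1*, which was at 41.0 CPM in the esophagus and 35.7 CPM in the stomach (0.15, -2.36 to 2.97). The ratios of *Ndnf*, *Fzd5*, *Stox2* and *Hoxa5* were past 2-fold there but rest on few UMIs, with intervals that include 0.

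**Figure D2:**
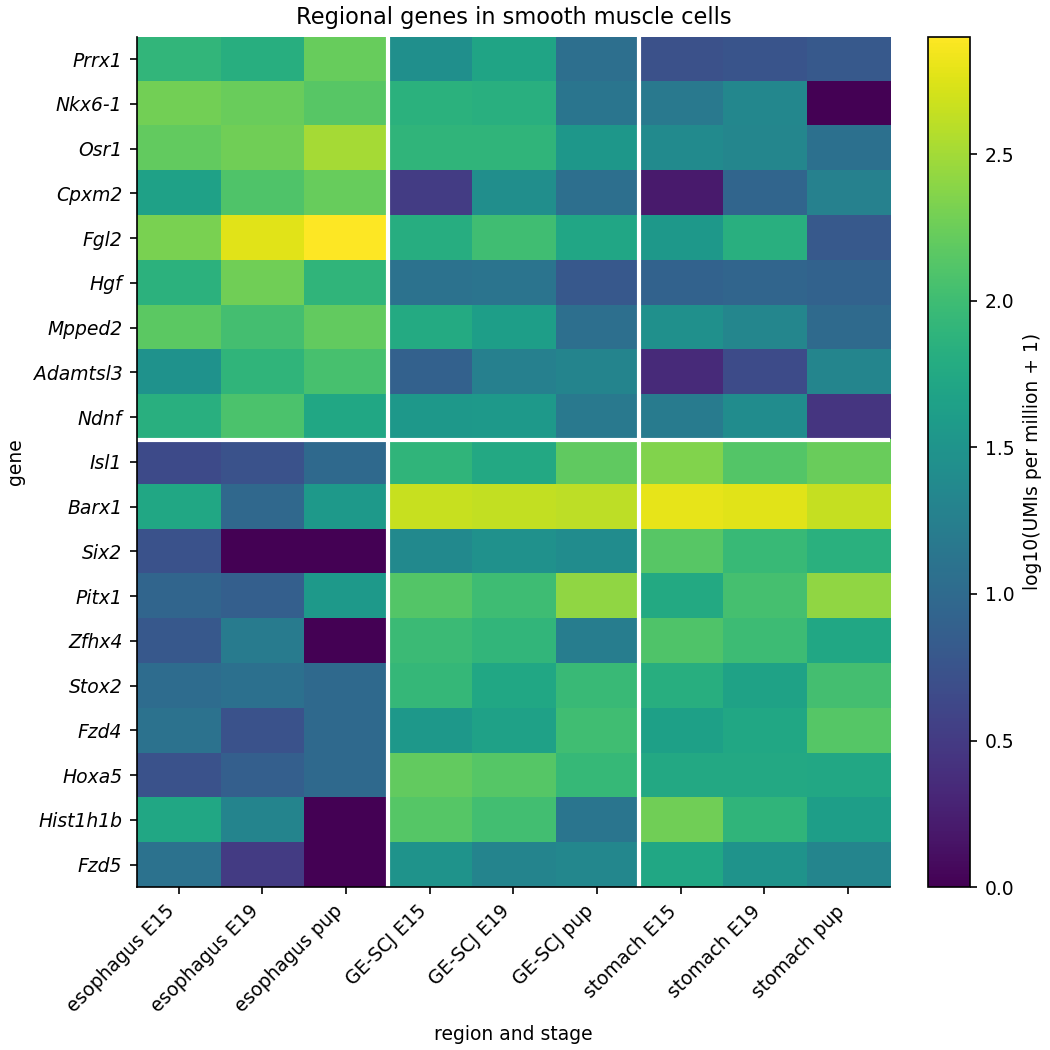
Levels, as log10(CPM + 1), of 9 of the genes most above and the 10 most below the stomach, in smooth muscle of the esophagus, GE-SCJ and stomach at E15, E19 and pup. Within a stage, the upper 9 genes are brighter in the esophagus than in the stomach and the lower 10 darker, and *Barx1* in the GE-SCJ is near its stomach level.

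Among signalling lists, *Sfrp2*, a secreted WNT antagonist, was the 1 of 11 measured WNT genes higher in the esophagus at every stage, at 639, 231, 209 and 40.8 CPM against 53.8, 63.2 and 53.7 CPM. *Dkk2*, *Sfrp1* and *Fzd4* were lower throughout, and the list medians were 0.14, 0.15 and 0.22. Within cluster 4, *Dkk2* was at 0.901 and 0 CPM in the esophagus and 40.9 and 34.2 CPM in the stomach at E15 and E19. The paper describes strong *Dkk2* expression in esophageal fibroblasts and smooth muscle and relatively low stomach expression. Its evidence was single-cell levels in fibroblasts and RNA in situ hybridization of tissue. In its comparison of E19 and adult, *Dkk2* was restricted to fibroblasts of the adult esophagus. The cluster 4 values here are for fetal muscle, another stage and cell class. Adult stomach muscle is not in the comparison here. *Inhba*, the activin βA subunit, was the 1 of 14 measured BMP and TGF-β genes past 2-fold throughout, at 101, 62.7, 34.9 and 64.2 CPM against 6.05, 15.02 and 3.58 CPM, with list medians of 0.03, 1.07 and -0.57. None of 9 measured Hedgehog response genes and none of 30 matrix genes was past 2-fold in the same direction at all 3 stages. With both organs in cluster 4, *Sfrp2* and *Inhba* were again the higher genes of their lists. *Sfrp1* was the 1 WNT gene lower throughout, *Dkk2* having no UMI in either organ in the pup, and *Fst*, *Gli3* and *Col8a1* were each the 1 lower gene of the BMP and TGF-β, Hedgehog and matrix lists. The pup ratios of *Inhba* (1.15, -1.55 to 7.41) and *Sfrp1* (-1.33, -4.18 to 0.43) within cluster 4 rest on few UMIs.

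Few contractile genes were past 2-fold between the organs before birth. The list medians against the stomach were 0.08, -0.04 and 0.98 by stage, and past 2-fold were 3, 1 and 13 of 29 genes higher and 0, 1 and 0 lower, beside 2.94%, 3.85% and 5.27% of all genes higher and 5.28%, 6.44% and 16.5% lower. Within cluster 4 the pup median was 0.20 with 2 genes higher and 1 lower, beside 11.2% and 19.2% of all genes, from 19 esophageal and 12 stomach cells. Of the 4 markers, *Myh11* was higher in the pup esophagus there (7541 against 4301 CPM, log2 ratio 0.81, 0.63 to 1.00), while *Acta2* (15781 against 16228), *Tagln* (13646 against 14179) and *Des* (1672 against 1775) were slightly below the stomach, with intervals of the ratio that include 0. *Ppp1r14a*, the inhibitor of myosin phosphatase also called CPI-17, was the 1 gene of the list higher at all 3 stages, at 79.4, 117, 515 and 502 CPM against 7.26, 22.3 and 219 CPM. *Actg2* was lower than in the stomach at E15 and E19 (5677, 7787, 6141 and 3256 CPM by stage against 7482, 14341 and 2945 CPM). In the pup it was higher by label but lower within cluster 4, at 6967 against 10056 CPM (log2 ratio -0.53, -0.68 to -0.38). *Des* was higher at E15, at 819.5 against 300 CPM.

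Many proliferation genes were lower in esophageal muscle than in stomach muscle at E15 and E19. Of 20 cell cycle genes, 10, 14 and 4 were more than 2-fold lower by stage, beside 5.28%, 6.44% and 16.5% of all genes, and 0, 0 and 1 higher, with medians of -0.99, -1.22 and -0.47. The pup share was thus near that of all genes. *Mki67* and *Birc5* passed 2-fold at all 3 stages, but had 0 UMIs in the pup esophagus, where a level of 26.2 CPM cannot be told from 0, so no pup difference by label is shown for them. In cluster 4 cells the pup esophagus again had 0 CPM of both, where 3 counts would give 30.8 CPM. The 12 stomach pup cells of that cluster had 143 CPM of *Mki67* and 83.4 CPM of *Birc5*. Both intervals of the log2 ratio lay below 0 there, with upper limits of -1.69 and -0.74. They cover counting error only. How these UMIs were spread over the 12 cells was not examined, so a few cycling cells could hold most of them. Within cluster 4 the counts were 10, 15 and 15 lower, beside 5.46%, 6.58% and 19.2% of all genes, and 0, 0 and 1 higher, with medians of -0.999, -1.20 and -1.64. The pup count and median rest on the same 12 stomach cells and share that limit. *Mki67*, the Ki-67 antigen of cycling cells, was at 67.9, 86.5, 0 and 11.7 CPM in the esophagus and 186, 179 and 26.9 CPM in the stomach, and *Birc5*, survivin, at 61.8, 34.6, 0 and 0 CPM and 138, 103 and 21.5 CPM. The list summed to 1186, 884, 218 and 204 CPM over the esophageal stages and to 2390, 2165 and 387 CPM in the stomach. In the authors' phase calls, 61 of 93 esophageal cells at E15 were in G1, 25 in S and 7 in G2M, against 57, 28 and 26 of 111 stomach cells. At E19 the G1 cells were 34 of 42 in the esophagus and 93 of 160 in the stomach. In the pup they were 22 of 22 and 111 of 113, so the calls showed nearly all cells of both organs in G1, and all 30 adult cells of the esophagus were in G1.

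The receptors *Ednrb* and *Chrm2* varied strongly by stage in esophageal muscle, and *Ednrb* was also above the stomach. *Ednrb*, the endothelin receptor type B (chr14:103814625-103844402, minus strand), was the 1 of 23 measured excitation genes above the stomach at every stage, with list medians of 0.19, 0.45 and 0.25. Within cluster 4 *Pde5a*, the cyclic GMP phosphodiesterase, was past 2-fold as well, and the pup median was 0. *Ednrb* was at 362 (328–398), 1006 (916–1101), 942 (773–1138) and 75.8 (40.4–129.7) CPM, against 29.04 (21.4–38.5), 55.9 (45.9–67.5) and 349 (302–402) CPM in the stomach. It was found in 73 of 93, 41 of 42, 19 of 22 and 4 of 30 cells by stage. *Chrm2*, the muscarinic acetylcholine receptor M2 (chr6:36388084-36528414, plus strand), was at 251 (223–282), 733 (657–815), 776 (624–955) and 0 CPM, so the intervals of E19 and pup overlapped and both lay above E15. The stomach had 238, 251 and 46.6 CPM, close to the esophagus at E15, and the GE-SCJ 180.1, 267 and 177 CPM. The stomach pup cells of cluster 4 had 286 CPM of *Chrm2* and 167 CPM of *Ednrb*, from 12 cells. Not 1 of the 30 adult cells had a *Chrm2* UMI, against 19 of 22 pup cells, which makes the adult at least 44.4-fold lower than the summed pup level, taking 3 counts over the group (17.5 CPM) as the floor. *Rgs2*, a regulator that shortens signalling by G protein-coupled receptors, was at 416, 363, 846 and 35.01 CPM and also lowest in the adult. Stroma held at most 31.9 CPM of *Rgs2*. The adult levels were low within cluster 4 as well. The 7 adult cells of cluster 4 had 0 CPM of *Chrm2*, 95.9 of *Ednrb* and 38.3 of *Rgs2*, beside 821, 1077 and 934 CPM in pup cells of cluster 4. The adult *Ednrb* value was 5 UMIs in 1 cell. That of *Rgs2* was 2 UMIs in 2 cells, under the 57.5 CPM that 3 counts would give. For *Chrm2* the adult was at least 14.3-fold lower there, taking 3 counts over the group as the floor.

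Genes of striated muscle were carried at low levels by the fetal and pup cells. The list of 32 skeletal muscle genes summed to 822, 923, 925 and 105 CPM by stage, beside 53.5, 67.9, 148 and 49.5 CPM in stroma and 99.1 CPM in immune cells. Stomach smooth muscle held 553, 773 and 147 CPM at E15, E19 and pup, so the fetal sums were of similar size, but single genes differed. Of 8 measured members, 4, 2 and 3 were more than 2-fold higher in the esophagus by stage and 0, 3 and 2 lower. The shares over all genes were 2.94%, 3.85% and 5.27% higher and 5.28%, 6.44% and 16.5% lower. The defining genes *Pax7*, *Pax3*, *Myod1*, *Myog*, *Ttn*, *Neb* and *Chrna1* had 0 UMIs in the 187 cells. *Tnnt3*, the fast skeletal troponin T (chr7:142498836-142516009, plus strand), was at 8.82 (4.23–16.2), 329 (278–385), 479.8 (361–625) and 0 CPM, with 6.05, 32.6 and 3.58 CPM in the stomach. It was uneven between cells: 15 of 42 cells at E19 and 6 of 22 in the pup carried it, and 5 cells held 85.5% and 98.2% of its UMIs. *Ckm*, the muscle creatine kinase, was at 60.9, 305, 201 and 5.83 CPM in the esophagus and 7.86, 279 and 19.7 CPM in the stomach, and *Tnni2*, the fast troponin I, at 21.2, 134, 105 and 5.83 CPM and 5.44, 16.6 and 10.7 CPM. At E15 a different set was prominent. *Myl4*, an atrial and fetal muscle light chain, was at 215, 8.65, 0 and 5.83 CPM, *Actc1*, the cardiac α-actin, at 214, 17.3, 17.4 and 0 CPM, and *Tnnt1*, the slow skeletal troponin T, at 194, 58.4, 43.6 and 17.5 CPM.

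**Figure D3:**
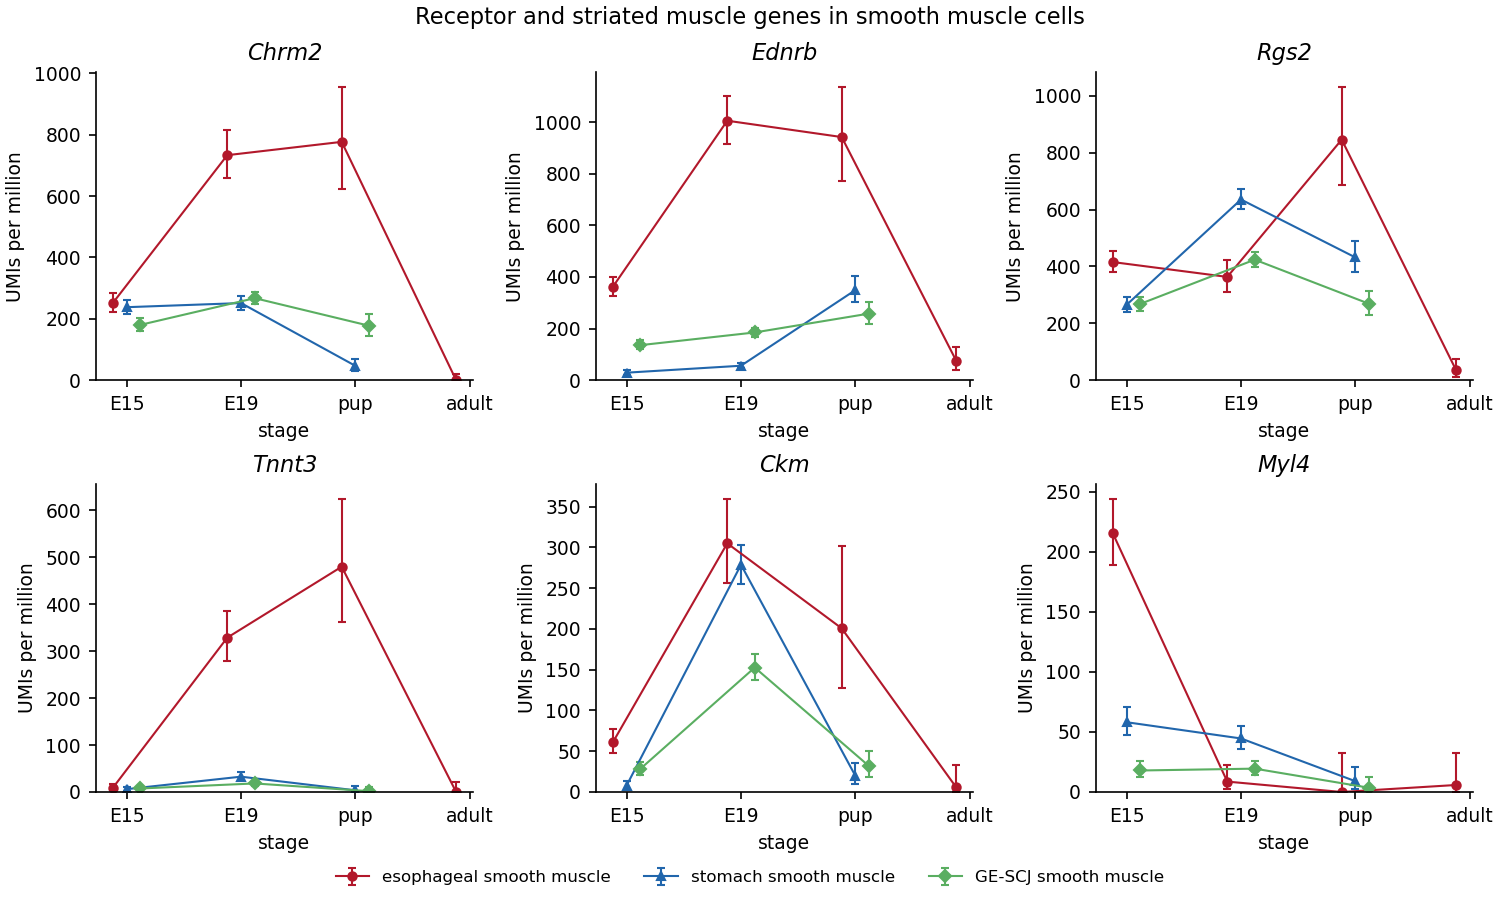
CPM of *Chrm2*, *Ednrb*, *Rgs2*, *Tnnt3*, *Ckm* and *Myl4* by stage in smooth muscle of the esophagus, stomach and GE-SCJ, with exact 95% Poisson intervals. *Chrm2* and *Tnnt3* reach their highest level in the E19 and pup esophagus and have 0 UMIs in the adult, and *Myl4* is highest in the E15 esophagus.

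At least 2 genes of the skeletal list were found in 68.8%, 59.5%, 45.5% and 6.7% of cells by stage, at the cells' own depth. After thinning each cell to 4000 UMIs, which left 92, 40, 17 and 23 cells, the shares were 45.7%, 37.5%, 41.2% and 8.7%. The stomach had 27.9%, 42.5% and 5.1%, esophageal stroma 1.2%, 3.3%, 5.6% and 0%, and immune cells 1.5%. At matched depth the E15, E19 and pup shares were above those of stroma and of immune cells.

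In the pup most fetal growth genes were lower than at E15, and 7 contractile genes were higher. Of 1870 genes with at least 100 UMIs over both stages, 104 (5.56%) were more than 2-fold higher in the pup and 246 (13.2%) more than 2-fold lower, with a median over all genes of -0.17. The contractile list had 7 of 27 genes higher (*Lmod1*, *Synm*, *Synpo2*, *Pdlim3*, *Csrp1*, *Ppp1r12b* and *Ppp1r14a*) and *Cnn2* lower, with a median of 0.42. Within cluster 4 these counts were again 7 and 1, with a median of 0.57, beside 5.6% of all genes higher and 14.9% lower. *Synm*, the intermediate filament protein synemin, was at 82.04, 301, 654 and 251 CPM by stage, and *Lmod1*, leiomodin, which starts actin filaments in smooth muscle, at 279.6, 400, 602 and 496 CPM.

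The fetal growth list had 8 of 10 measured genes more than 2-fold lower in the pup and 0 higher (median -1.37). Within cluster 4 it had 9 of 10 lower (median -1.77), beside 14.9% of all genes. *H19*, an imprinted RNA, was at 1426, 1585, 401 and 58.3 CPM by stage, against 428 CPM in immune cells, so its pup level lay near the background. *Cdkn1c*, an imprinted inhibitor of cyclin-dependent kinases, was at 1049, 752, 131 and 23.3 CPM, and *Mest*, an imprinted hydrolase, at 254, 43.2, 17.4 and 5.83 CPM. *Igf2*, the fetal growth factor, was at 259, 115, 95.96 and 81.7 CPM. The list summed to 6361, 4253, 2364 and 642 CPM over the stages. The immediate early and heat-shock list had 4 of 10 genes higher in the pup than at E15 (median 0.73), but 2 of 10 within cluster 4 (median -0.03), beside 5.6% of all genes.

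The 10 genes most above E15 in the pup were led by *Hspa1b*, a heat-shock chaperone, at 44.1, 28.1, 654 and 1639.5 CPM by stage. A single pup cell held 47% of its pup UMIs. *Ogn*, the proteoglycan osteoglycin, was at 63.5, 327, 889.8 and 193 CPM, and *Klf9*, a glucocorticoid-responsive zinc-finger factor, at 101, 195, 689 and 519 CPM. *Cebpd*, a stress-responsive leucine zipper factor, was at 38.8, 43.2, 541 and 642 CPM, and *Mt1*, metallothionein, at 308, 214, 1788 and 2042 CPM. *Cebpd*, *Klf9* and *Mt1* were also high in pup stroma, at 2046, 854 and 1444 CPM against 166, 60.4 and 194 CPM at E15. *Gm13889*, *S100a10* (a calcium-binding-family adaptor of annexin A2), *Dst* (the cytolinker dystonin), *Synm* and *Ppp1r14a* made up the rest.

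Among the 10 genes most below E15, *Car3*, carbonic anhydrase 3, an enzyme of muscle, was at 359, 452, 0 and 0 CPM by stage and at 29.6, 10.4 and 8.96 CPM in the stomach. Its 0 UMIs in the pup put the pup at least 13.7-fold under E15. *Sulf1*, a heparan sulfate sulfatase, and *Vcan*, the matrix proteoglycan versican, had 0 pup UMIs against 260.2 and 191 CPM at E15, differences of at least 9.94-fold and 7.32-fold. *Sema3d*, a secreted guidance cue, was at 206, 12.97, 8.72 and 5.83 CPM, and *Adcy1*, a calmodulin-dependent adenylyl cyclase, at 93.5, 15.1, 0 and 0 CPM. *Myl4*, *Ptprd* (a receptor phosphatase), *Cks2* (a cell cycle kinase subunit) and *Bcl11a* (a zinc-finger repressor) also had 0 pup UMIs. *Hba-a1*, an α-globin of red blood cells, was in this group through 1 E15 cell, which held 94% of its UMIs.

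**Figure D4:**
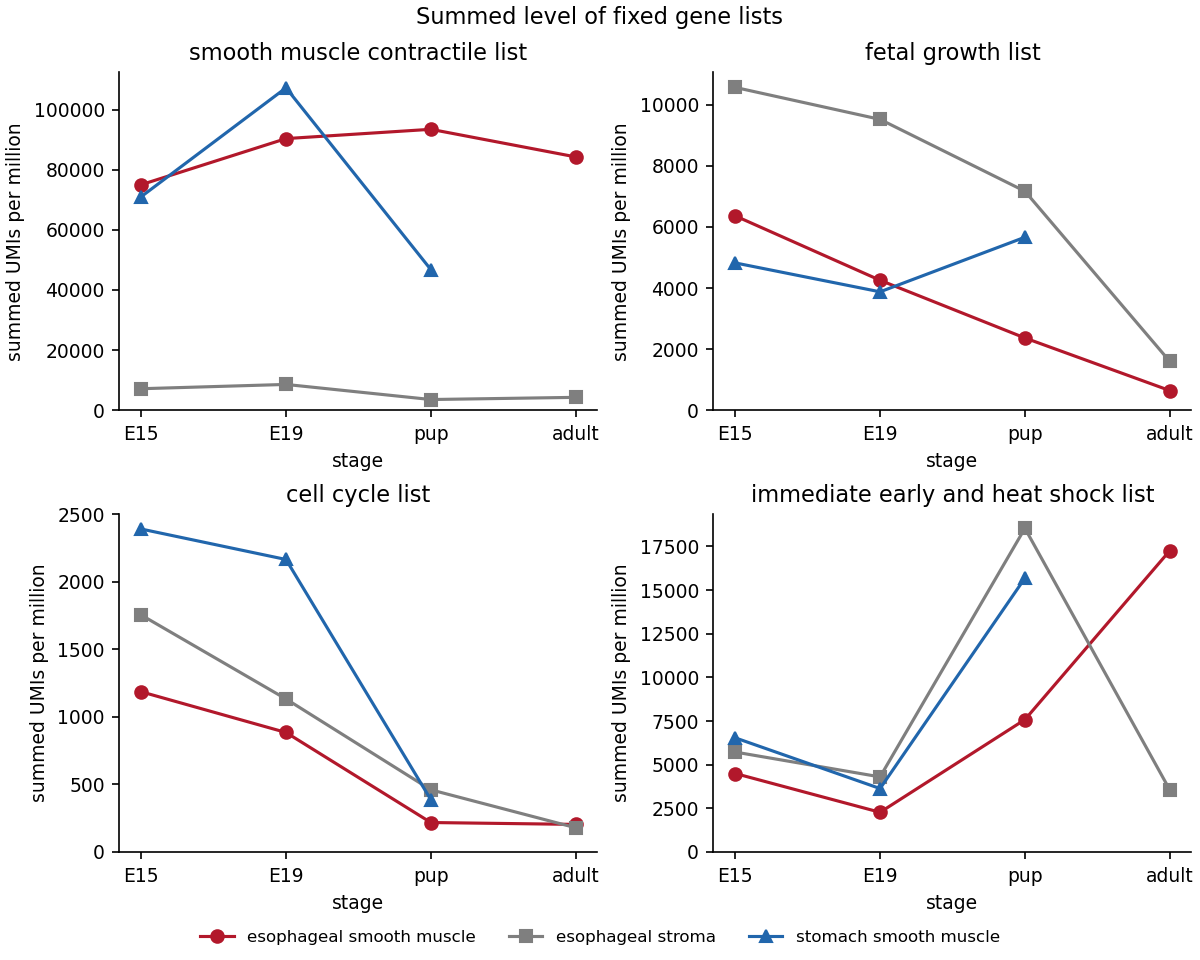
Summed CPM of the contractile, fetal growth, cell cycle and immediate early lists by stage in esophageal smooth muscle, esophageal stroma and stomach smooth muscle, 1 point per group. Esophageal muscle keeps a contractile sum of 74998 to 93429 CPM across stages while its fetal growth sum goes from 6361 to 642 CPM and its immediate early sum is highest in the adult at 17253 CPM.

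In the adult 23 of 30 cells were in cluster 11, against 3 of 22 in the pup, and the comparison of these stages includes that difference. Of 399 genes with at least 100 UMIs over both, 49 (12.3%) were more than 2-fold higher in the adult and 29 (7.27%) lower, with a median of -0.14. The balance turned to 42 higher and 48 lower without mitochondrial, ribosomal and hemoglobin genes in the library size. With at least 300 UMIs it was 11 and 14. *Crip1*, a LIM domain protein, was at 71.5, 36.8, 105 and 6523 CPM by stage, and at 441 CPM in adult cluster 4 against 9184 CPM in adult cluster 11 and 71.8 CPM in pup cluster 4. Adult stroma also carried it, at 4382 CPM. *Rgs5*, a G protein signalling regulator of pericytes, was at 70.6, 10.8, 78.5 and 3156 CPM by stage, and in the adult at 249 CPM in cluster 4 and 4428 CPM in cluster 11, beside 41.04 CPM in pup cluster 4. The adult over pup log2 ratios within cluster 4 were 2.34 and 2.16. The adult value came from 6 of 7 cells for *Crip1*, but for *Rgs5* its 13 UMIs were in 2 of 7 cells, beside 4 UMIs in 3 of 19 pup cells. *Rgs4* and *Sorbs2*, another regulator of this family and an actin-linked adaptor, had adult over pup ratios of 5.10 and 4.74. Within cluster 4 they had 0 adult against 1 pup UMI and 1 against 2 UMIs, which gives no direction.

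*Enpp2*, autotaxin, which makes lysophosphatidic acid, was higher in the adult, also within cluster 4, at 109, 43.2, 227 and 2199.6 CPM by stage and 4237 CPM in adult cluster 4 beside 246 CPM in pup cluster 4. *Fgl2*, *Higd1a* (a mitochondrial hypoxia-induced protein) and *Ogn* were, with *Rgs2* and *Ednrb*, the 5 lowest genes, with ratios of -3.35, -2.45 and -2.16, and within cluster 4 those of *Higd1a* and *Ogn* were -2.11 and -0.63. *Fgl2* had 0 UMIs in the 7 adult cells of cluster 4, where it was at least 14.99-fold lower than in the pup, taking 3 counts over the group as the floor. The contractile list had *Synm* as its 1 of 24 genes past 2-fold, lower in the adult, and a median of -0.24. Within cluster 4 the median was 0.14 with 2 genes higher, a share near the 10.0% of all genes there: *Cnn1* was at 4908 CPM in the adult and 2021 CPM in the pup, and *Des* at 3489 and 1672 CPM.

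Immediate early and heat-shock genes, which rise when tissue is dissociated, were highest in the adult cells. Of 10 measured members 8 were more than 2-fold above the pup and 0 below, with a median of 1.32, and within cluster 4 the count was 4 of 10 with a median of 0.97, beside 10.0% of all genes. *Fos*, a component of the AP-1 factor, was at 775, 279, 1963 and 4154 CPM in smooth muscle and 923, 706, 3841 and 452 CPM in stroma. The list summed to 4495, 2273, 7581 and 17253 CPM by stage. Against stroma, 12 of 13 genes were higher in the adult (median 2.12, beside 14.3% of all genes), while 10 were lower at E19 (median -1.54, beside 16.3%) and 8 in the pup (median -1.32, beside 21.3%). Within cluster 4, 8 of 13 were higher than stroma in the adult, with a median of 1.20, from the 7 adult cells of that cluster. The share of all genes past 2-fold is not given for that comparison, so this count has no background beside it. The part of this list in the other adult differences was not tested.

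Markers of other cells separated the adult cells further. The pericyte and vascular mural list of 11 genes summed to 445, 532, 750 and 5111 CPM by stage in smooth muscle, and to 447, 423, 366 and 693 CPM in stroma. In the adult, cluster 4 had 729 CPM and cluster 11 had 7028 CPM. *Notch3*, the receptor of vascular smooth muscle and pericytes, was at 368 CPM in the adult, from 0 in cluster 4 and 528 CPM in cluster 11, and *Rgs5* was found in 21 of 30 adult cells. At least 2 mural genes were carried by 65 of 93, 34 of 42, 17 of 22 and 27 of 30 cells at their own depth. Thinned to 4000 UMIs the shares were 31.5%, 52.5%, 70.6% and 78.3%, beside 31.3%, 30.9%, 20.8% and 10.0% in stroma and 2.2% in immune cells. In the adult these were 16 of 16 cluster 11 cells and 2 of 7 cluster 4 cells. The part of these mural genes in the other adult differences was not tested beyond the values within cluster 4. *Mcam*, an adhesion molecule that visceral muscle also carries, was the most abundant gene of the list at E15, E19 and pup.

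The fibroblast list summed to 4565, 5116, 4711 and 5403 CPM by stage. In the pup it was at 2688 CPM in cluster 4 and at 16190 CPM in the 3 cells of cluster 11, so fibroblast genes in the pup sum rest in part on these 3 cells. Lists of other cells were lower. Endothelial genes summed to at most 26.2 CPM at any stage, immune genes to at most 17.5 CPM, neural and glial genes to at most 20.3 CPM and mesothelial genes to at most 8.72 CPM. The interstitial cell of Cajal list summed to 109, 75.7, 26.2 and 274 CPM, led in the adult by the chloride channel *Ano1* at 204 CPM, with *Kit* at 0. Columnar epithelial genes summed to 871, 698, 1675 and 1301 CPM, similar to 690, 788, 1746 and 1201 CPM in stroma and 1041 CPM in immune cells, and *Tff1* was the most abundant in each of them, a level shared by cell types that do not make it. Squamous genes summed to 70.6, 80.01, 122 and 99.2 CPM, under the 155 CPM of immune cells. At E15 a single cell held 1811 of the 1964 *Hbb-bs* UMIs, a β-globin, or 92%.

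**Figure D5:**
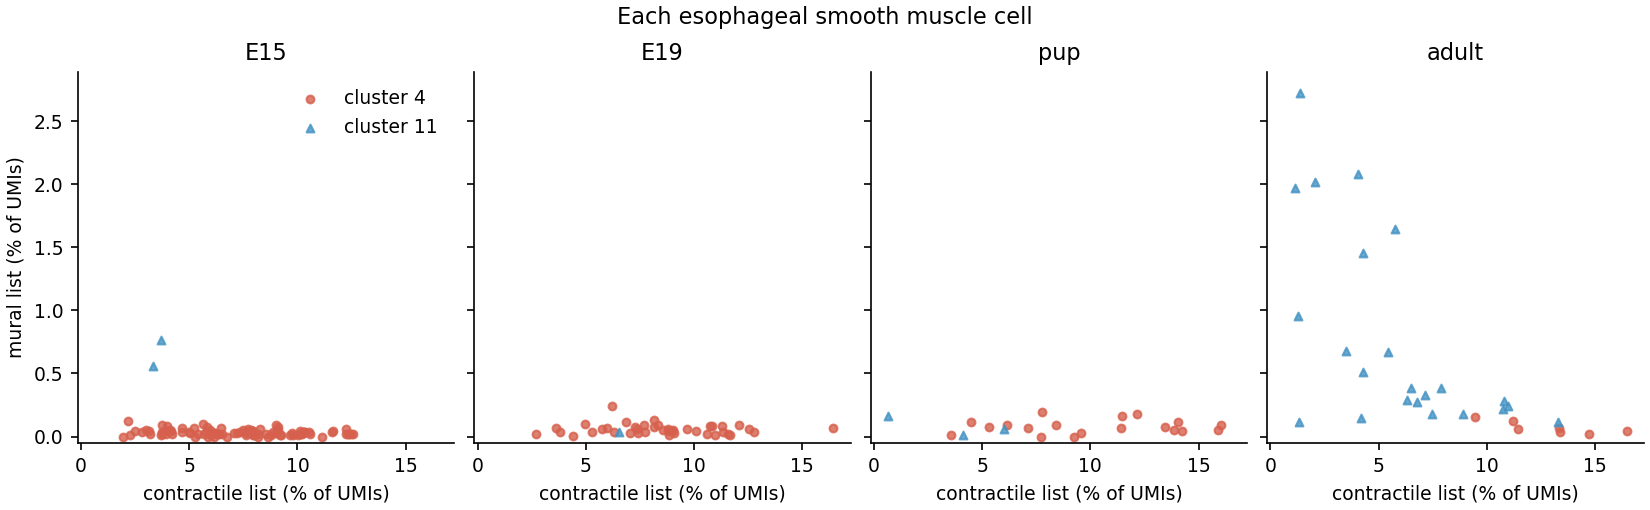
Each point is 1 esophageal smooth muscle cell, by the share of its UMIs in the contractile list (x axis, %) and in the mural list (y axis, %), with circles for cluster 4 and triangles for cluster 11, 1 panel per stage. Cells of E15, E19 and pup lie along the x axis with few exceptions, and the adult panel holds cluster 11 cells with high mural shares beside 7 cluster 4 cells with low ones.

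Between single cells the contractile share of UMIs had a median of 7.48% in the 91 E15 cells of cluster 4, 8.59% in 41 cells at E19, 9.55% in 19 pup cells and 13.3% in 7 adult cells. In adult cluster 11 it was 5.75%. *Chrm2* ranged in E19 cells from 0 to 2051 CPM with a median of 620.3 CPM, and *Nkx6-1* from 0 to 782 CPM with a median of 152 CPM. After thinning to 4000 UMIs, the ratio of variance to mean was highest at E15 for the globins *Hbb-bs*, *Hba-a1*, *Hba-a2* and *Hbb-bt*, through the single cell named above. At E19 it was highest for *Malat1*, a nuclear RNA (68.6), with *Actg2* (11.5), *Tpm2* (9.94) and *Tnni2* (9.80) among the top 10. In the adult *Malat1* (147), *Crip1* (49.1), *Mt1* (48.4) and *Rgs5* (33.1) led. In the pup, where 17 cells reached that depth, it was not computed.

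Over 55 groups of cells by class, region and stage, the genes whose levels were most like those of *Myh11* were *Actg2* (Pearson's r of log2(CPM + 10) 0.983), *Cnn1* (0.979), *Fbxl22* (0.975), *Lmod1* (0.972), *Mylk* and *Tagln* (both 0.969). *Nexn*, an actin-binding protein (0.968), *Myl9* (0.966), *Acta2* (0.962) and *Sntg2* (0.961) came next. The groups share 1 library and cell classes repeat across stages, so these values only describe likeness.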

How the data were processed

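UMI counts of 19550 genes in 7808 cells were deposited by the authors without normalization, made with Cell Ranger 6.1.1 on the 10x mouse reference (mm10, GRCm38). The authors set limits on detected genes and total UMIs against potential doublets and a limit on mitochondrial content, assigned tags, clustered and labelled cells, and deposited the mitochondrial percent of each cell (median 2.63, 4.102, 2.56 and 3.54% by stage in the cells described). No doublet caller was run here.

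UMIs were summed per label, region and stage where at least 20 cells were present. Precision follows the summed UMIs: exact Poisson intervals for CPM, conditional binomial for ratios and Clopper-Pearson for shares, at 95%. Genes were named by the smallest absolute log2 ratio over stages among genes past 2-fold with at least 100 UMIs, 10 per direction (5 for adult over pup), and 1 gene that the rule names is not reported here. The members and gene lists were chosen with earlier results of these data known. Positions are from GENCODE M21 and sequences from RefSeq. Marker shares were repeated after thinning to 4000 and 2000 UMIs (seed 1). Alternatives changed the filter, fold, added UMIs, cells, clusters, stages and library size. The ratios were tested on simulated data, but no outcome of that is given here and no result rests on it. Python 3.11.15 was used with matplotlib 3.10.9, pandas 2.3.3, scipy 1.17.1 and numpy 2.4.6.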

Additional observations from a re-analysis of the deposited data

Results flagged for a closer look

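From E19 to the pup, 5 of 27 measured contractile genes (18.5%), beside 75 of 4519 genes in all (1.66%), had ratios of opposite direction in the esophagus and the stomach, each past 0.2 and with intervals apart from 0 in both. The difference was not tested, since each group is 1 sample. *Myh11* had a pup over E19 log2 ratio of 0.55 in the esophagus and -1.22 in the stomach, a difference of 1.78. *Tagln* had 0.28 and -0.75 (difference 1.03), *Synm* 1.10 and -2.01 (3.11), the actin crosslinker *Flna* 0.45 and -0.48 (0.94), and *Actn1*, α-actinin, 0.54 and -0.73 (1.27). Of the stomach pup cells 101 of 113 were in cluster 11, against 3 of 22 in the esophagus. Within cluster 4, *Myh11* went from 4691 CPM at E19 to 7541 in the pup in the esophagus and from 4723 to 4301 in the stomach, and *Actn1* from 794 to 1170 and from 861 to 786. These stomach changes of *Myh11* and *Actn1* were under the limit of 0.2, so neither gene met the rule within cluster 4. For *Tagln* (10411 to 13646 and 13823 to 14179), *Synm* (307 to 739 and 444 to 620) and *Flna* (2255 to 3447.5 and 2215 to 2335) the direction within cluster 4 was the same in both organs. The 5 genes thus met the rule by label only.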

How the results depend on the processing

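No paired analysis was possible because each region and stage is 1 pooled sample, and for the same reason no replicate could be left out. Past 3-fold in place of 2-fold, genes higher and lower at every stage were 95 and 113 against stroma and 20 and 14 against the stomach, 38 and 95 for pup over E15, and 23 and 8 for adult over pup. Adding 5 UMIs in place of 1 left 135 genes lower than stroma, 16 lower than the stomach and 143 lower in the pup. Without a UMI minimum the counts were 82 and 101 against the stomach, 1071 and 2039 for pup over E15, and 2269 and 1763 for adult over pup. A minimum of 50 UMIs gave 229 and 577, and 108 and 57, for these stage comparisons. A minimum of 300 UMIs gave 15 and 28 against the stomach, 25 and 68 for pup over E15, and 11 and 14 for adult over pup. Asking also that the interval exclude equality left 163 genes lower than stroma and 24 lower than the stomach. Leaving out the adult gave 458 genes lower than stroma, and leaving out the pup 85 higher and 146 lower than the stomach. The plain addition of 1 UMI to both sums left 36 lower than the stomach. Without the cell with most UMIs of each gene, 89 genes were lower than the stomach and 383 lower in the pup than at E15. Within cluster 4, 89 genes were lower than the stomach. Without mitochondrial, ribosomal and hemoglobin genes in the library size, 42 were higher and 48 lower in the adult than in the pup. Adult over pup ratios of *Rgs4* (-0.62) and *Sorbs2* (-0.0499) had the opposite sign within cluster 4, but rest there on at most 2 UMIs a stage and give no direction. The share with at least 2 mural genes was 31.5% at E15 and 52.5% at E19 after thinning to 4000 UMIs, and 12.9%, 26.2%, 42.9% and 67.9% by stage after thinning to 2000. With 3 genes required it was 39.8%, 64.3% and 36.4% at E15, E19 and pup. Of 1562 values for single genes and marker shares, these 2 included, 1347 moved by less than their counting error and 213 by more. The alternatives by cluster, interval, plain addition and left-out stage were chosen after seeing the data. Depth limits the pup most, where a level under 26.2 CPM can be missed.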
